A study of Homo sapiens with 12 samples.

Results

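The proteasome genes were taken from the count table of 2 human retinoblastoma cell lines as every row whose symbol starts with PSMA, PSMB, PSMC, PSMD, PSME, PSMF or PSMG followed by a digit. The rule found 49 of 27505 rows, and 46 of them passed the filter on low counts and were tested. By role they fall into 7 alpha and 7 beta subunits of the constitutive 20S core, 5 immunoproteasome or tissue-specific core subunits, 6 ATPases and 3 non-ATPase subunits of the 19S base, 8 subunits of the 19S lid, 5 activators or inhibitors, 7 assembly chaperones, and PSMC3IP, a recombination factor also known as HOP2 that is not a proteasome subunit and only shares the prefix. The 4 groups were WERI-Rb-1 (WERI) in 0.1% DMSO, WERI in 50 nM THZ1, Y79 in 0.1% DMSO and Y79 in 50 nM THZ1, each kept for 12 h, with 3 cultures per group. THZ1 is a covalent inhibitor of CDK7, a kinase of the general transcription factor TFIIH, and it also binds CDK12 and CDK13. Both are established lines grown from human retinal tumours, labelled WT for genotype, and the DMSO cultures are the solvent controls. The submitters describe the 3 samples of a group as biological repeats. Here n = 3 cultures per group throughout, errors of log2 fold changes are standard errors (SE), and adjusted p-values come from edgeR's quasi-likelihood test with Benjamini-Hochberg adjustment over all tested features.

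The 26S proteasome is the ATP-driven protease that degrades ubiquitin-tagged proteins. Its 20S core is a stack of alpha rings, which gate the entry, and beta rings, which hold the active sites. The 19S regulatory particle caps the core: its base unfolds substrates with a ring of ATPases, and its lid removes ubiquitin chains through the metalloprotease PSMD14. Subunit genes are known to be driven together by the transcription factor NFE2L1 when proteasome activity falls.

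The libraries held 29677575 to 37433574 counts. The lines expressed the listed retinoblastoma and photoreceptor markers (8 of 8 detected in each group, summed level 1860 to 2930 CPM, the count relative to the TMM-scaled library size), while the 3 blood markers summed to at most 4.26 CPM. The 3 glial markers summed to 82.4 to 114 CPM in WERI against at most 1.16 in Y79, and 4 stromal and endothelial markers to 24.6 to 54.8 CPM in WERI against at most 4.2 in Y79, with the 3 pigment epithelium markers at 3.26 to 11 CPM in DMSO and 5.73 to 45.1 CPM in THZ1 (TYR among them at 0 counts in every group). The glial and stromal levels move with the line. Sums also moved with THZ1: glia in WERI stood at 82.4 to 91.5 CPM in DMSO and 104 to 114 in THZ1, stroma at 24.6 to 27.4 and 52.8 to 54.8 in WERI and at 1.71 to 2.29 and 2.95 to 4.2 in Y79, and blood at 0.587 to 1.33 and 2.34 to 3.66 in WERI and at 0.903 to 1.74 and 3.05 to 4.26 in Y79. The retinoblastoma and photoreceptor sum stood at 2850 to 2930 CPM in Y79 DMSO and 1860 to 2050 in Y79 THZ1. The part of these levels in the results was not tested. Under THZ1 the mRNAs of the mitochondrial genome took 8.44% to 11.2% of the counts against 3.74% to 4.46% in DMSO. Replicate 2 of Y79 in THZ1 stood apart: ribosomal protein genes took 14.7% of its counts against 10.9% and 10.6% in the other replicates, and the proteasome genes took 0.362% against 0.308% and 0.302%. Scaling matters for every direction given here. TMM put the median of all 14865 tested genes at a log2 fold change of -0.11 in WERI and -0.09 in Y79, scaling by library size alone at -0.56 and -0.65, scaling on mitochondrial mRNAs at -2.01 and -1.80, and RLE factors at -0.03 and 0. Changes are therefore relative to the other transcripts, and values are by TMM unless another scaling is named; by mitochondrial scaling no tested member rose in either line at an adjusted p under 0.05. Values relative to the library give neither the number of cells nor the RNA per cell. In bulk RNA, a change within cells and a change in the mix of cells cannot be told apart.

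The promoters of the lid genes are shown first, because this class had the lowest median log2 fold change of the subunit classes in both lines. Windows were taken from RefSeq on GRCh38.p14, which had an entry for 43 of the 49 genes, and cover 60 bases before to 10 bases after the annotated start. Capitals mark CCGGAAG or its reverse complement CTTCCGG, a motif with the GGAA core that ETS-family factors recognise. PSMD6, PSMD7, PSMD12 and PSMD14 fell at least 2-fold in both lines (a call that 16.7% of all tested genes had in WERI and 19.9% in Y79), PSMD8 is a lid gene that rose, and PSMD2, PSMB4 and PSME1 are the genes of the base, core and activators with the highest or near highest rise.
PSMD6: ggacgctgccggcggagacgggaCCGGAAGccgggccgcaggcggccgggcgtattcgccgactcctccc
PSMD7: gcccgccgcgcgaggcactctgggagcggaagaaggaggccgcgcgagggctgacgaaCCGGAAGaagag
PSMD12: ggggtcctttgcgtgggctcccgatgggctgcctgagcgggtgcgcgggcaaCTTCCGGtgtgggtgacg
PSMD14: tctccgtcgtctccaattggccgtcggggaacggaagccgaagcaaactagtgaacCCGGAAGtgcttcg
PSMD8: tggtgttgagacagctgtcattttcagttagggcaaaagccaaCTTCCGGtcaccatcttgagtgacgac
PSMD2: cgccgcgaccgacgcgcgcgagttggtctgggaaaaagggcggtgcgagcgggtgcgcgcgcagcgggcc
PSMB4: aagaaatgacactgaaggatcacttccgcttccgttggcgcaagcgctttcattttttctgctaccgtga
PSME1: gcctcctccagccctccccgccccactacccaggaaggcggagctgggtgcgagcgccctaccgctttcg
They lie at chr3:64023485-64023554 (minus strand), chr16:74296754-74296823 (plus strand), chr17:67366568-67366637 (minus strand), chr2:161308365-161308434 (plus strand), chr19:38374511-38374580 (plus strand), chr3:184299181-184299250 (plus strand), chr1:151399513-151399582 (plus strand) and chr14:24136134-24136203 (plus strand). For PSMD2 the first of 2 annotated windows is shown. In GENCODE v29 on GRCh38, PSMD7 (ENSG00000103035) spans chr16:74296775-74306288, PSMD14 (ENSG00000115233) chr2:161308038-161411717, PSMD2 (ENSG00000175166) chr3:184298709-184309054, PSMB4 (ENSG00000159377) chr1:151399534-151401944, PSME1 (ENSG00000092010) chr14:24136158-24138967 and PSME3 (ENSG00000131467) chr17:42824385-42843758. The windows were chosen by the genes' response, so the letters in them are a description. The 5 lid windows hold this exact string, and the PSMD2, PSMB4 and PSME1 windows do not. The PSMB4 window does hold CTTCCG, the reverse complement of CGGAAG, and the PSMD2 and PSME1 windows hold GGAA. PSMC2, PSMA6, PSMG4 and PSMF1, which fell in both lines, also hold CCGGAAG near their starts, as does PSMC3IP, which rose. PSME3, PSMD1, PSMA5 and PSMG1, which fell, do not, nor do the lid genes PSMD11 and PSMD3. PSMB3, PSMD9 and PSME2, which rose, do not hold it there either.

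The 5 motifs searched were looked for on both strands in windows of 300 bases (250 before to 50 after the start), each separately, so that matches can overlap. CCGGAAG was found in 9 of 16 19S promoters (56.2%) and in 1 of 10 20S promoters (10%, PSMA6), against 12.2% of the promoters of all 27305 genes in the RefSeq table. Within 60 bases before to 10 after the start it stood in 6 of 8 lid promoters (75%), namely PSMD6, PSMD7, PSMD8, PSMD12, PSMD13 and PSMD14, against 5.93% of all genes. This shorter stretch and the lid as its own set were added after the responses were seen, so the share is a description. The motif backgrounds cover every gene of the RefSeq table, not only genes expressed in these lines. TGACNNNGC, the core of the antioxidant response element that NFE2L1 and NFE2L2 bind, was found in 34.9% of the member promoters against 16.1% of all genes. CCAAT was found in 7 of 10 20S promoters (70%) against 39.7% of all genes, the E-box CACGTG in 6.98% of member promoters against 8.77%, and TATAAA in 11.6% against 14%. A match is only a string of letters, not a shown binding site. PSMB1, PSMB6, PSMB7, PSMA7, PSMD4 and PSMG3 had no entry.

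By TMM scaling, proteasome genes were called in both directions under THZ1. In WERI 11 of the 46 tested genes rose (background over all tested genes 27.7%) and 20 fell (37.2%), with 15 past neither threshold. In Y79 11 rose (29.9%) and 23 fell (38.5%), with 12 past neither. The shares of members called are near these backgrounds, and the median log2 fold change of the members, -0.18 in WERI and -0.25 in Y79, lay below that of all genes. In both lines 8 members were called higher (PSMB3, PSMB4, PSMD2, PSMD8, PSMD9, PSME1, PSME2 and PSMC3IP), beside 21.8% of all genes, and 19 lower, beside 30.9%. By mitochondrial scaling 46 fell in WERI and 43 in Y79 with 0 rises, where 89.7% and 82% of all genes fell. Over all tested genes 64.8% were called in either direction in WERI and 68.3% in Y79. Of the 31 constitutive 20S and 19S subunits, 6 rose and 15 fell in WERI, and 6 rose and 17 fell in Y79. The 2 responses ran alike across these 31 genes (Pearson's r 0.91, Spearman's rho 0.91, across genes that share libraries and are not independent). Over 14860 protein-coding genes r was 0.68 and rho 0.78. The SD of the log2 fold changes over the 31 genes, 0.696 in WERI and 0.814 in Y79, was smaller than over all genes, 1.13 and 1.39. The larger gene sets were not matched to the 31 genes in expression level. The higher r and smaller SD are therefore not shown to be particular to these subunits.

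**Figure D1:**
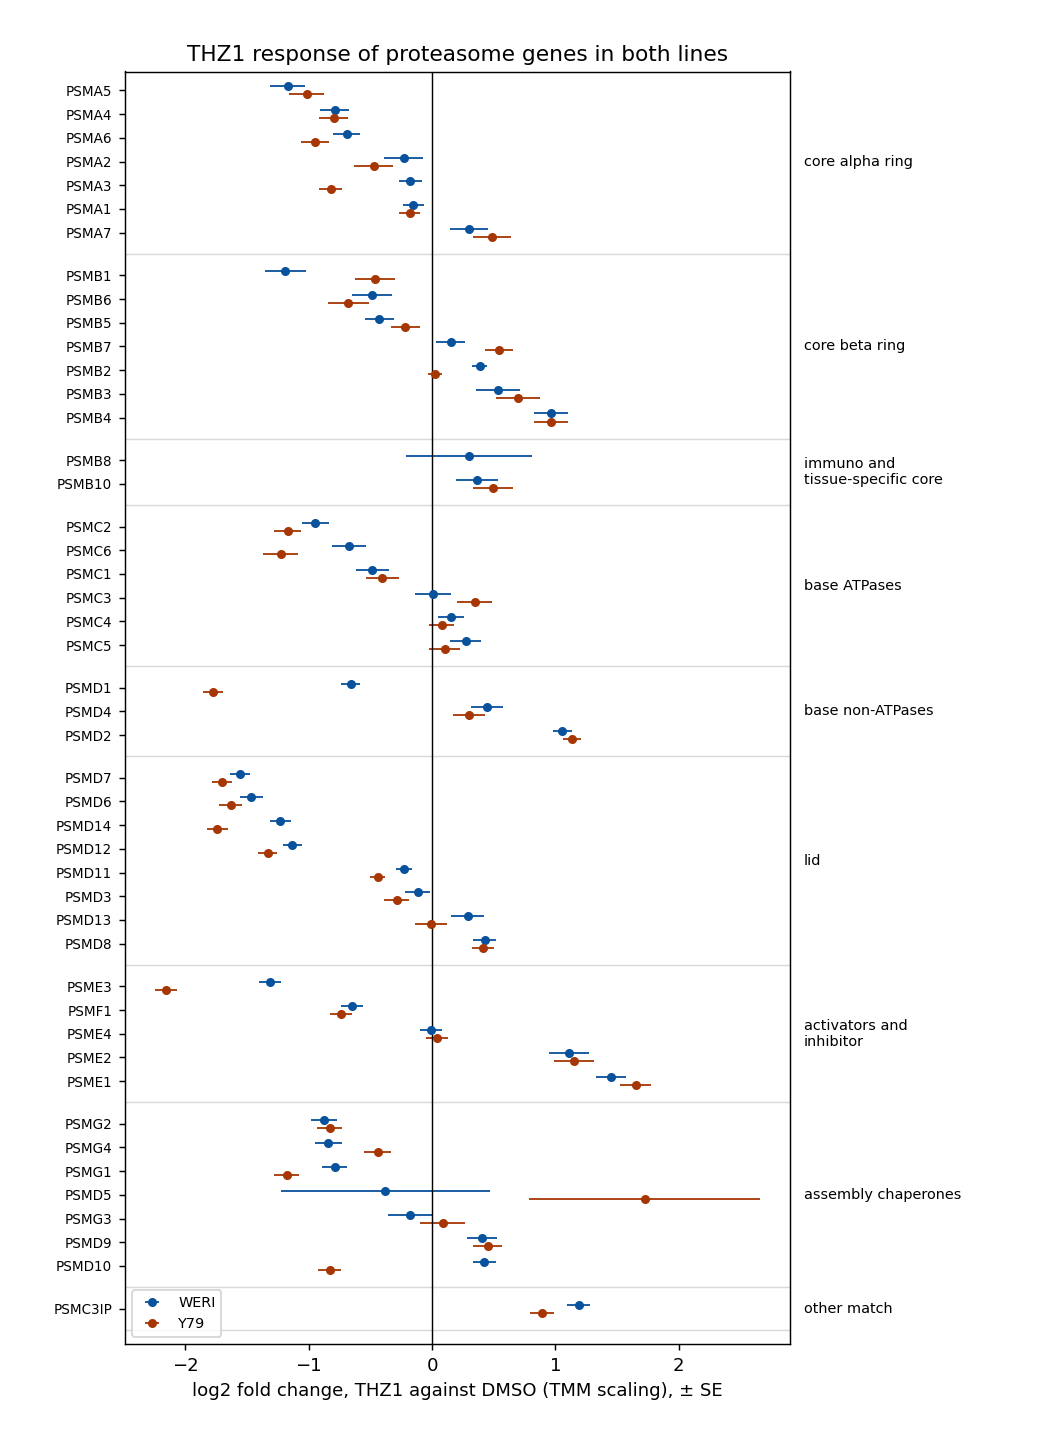
Log2 fold change of THZ1 against DMSO (x axis, TMM scaling, bars are SE) for each tested proteasome gene (y axis, grouped by role), blue for WERI and brown for Y79. PSMB8 is drawn for WERI only, since it had 0 counts in Y79. The lid holds 4 genes at or below -1.13 in both lines, and PSME1, PSME2, PSMD2 and PSMB4 lie at 0.96 or above in both.

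In the lid, 5 of 8 genes fell and 1 rose in WERI (median log2 fold change -0.68), and 6 fell and 1 rose in Y79 (median -0.89). PSMD7, a scaffold partner of the deubiquitinase, stood at 72.6, 69.8 and 70.3 CPM in WERI DMSO and at 23.1, 24.8 and 24.4 CPM in WERI THZ1, and at 95.4, 97.3 and 98.5 against 29.4, 33.5 and 26.7 CPM in Y79. The groups did not overlap in either line, a state that 42.8% of all genes reached in the lower direction in WERI and 39.5% in Y79. The fall was 2.94-fold in WERI (log2 -1.56, SE 0.0802, adjusted p = 2.22e-09) and 3.25-fold in Y79 (-1.70, SE 0.0803, adjusted p = 5.63e-10). PSMD14, the zinc metalloprotease that cuts ubiquitin chains off the substrate, stood at 65.7, 62.2 and 61.5 CPM in WERI DMSO, 25, 28.3 and 27.3 in WERI THZ1, 92.2, 97 and 90.2 in Y79 DMSO and 28.3, 30.6 and 24.6 in Y79 THZ1. It fell 2.35-fold in WERI (adjusted p = 2.54e-08) and 3.35-fold in Y79 (adjusted p = 7.89e-10). Treated values in both lines sat in the same narrow range, from 24.6 to 30.6 CPM, although Y79 had started higher.

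PSMD6, a PCI-domain lid subunit, fell 2.76-fold in WERI, from 61.5, 68.4 and 69.7 to 23.6, 22.1 and 26.6 CPM, and 3.1-fold in Y79, from 104, 106 and 99.7 to 30.2, 36.9 and 32.7 CPM. PSMD12, another PCI-domain subunit, fell 2.19-fold and 2.52-fold. PSMD11 fell by less (log2 -0.23 and -0.44), and the RLE factors took its WERI call away (-0.14, adjusted p = 0.0671). PSMD3 was past the threshold in Y79 only (-0.29, adjusted p = 0.0237, with overlapping libraries), a call lost without Y79 DMSO replicate 2 (-0.29) or 3 (-0.26) or THZ1 replicate 1 (-0.23) or 3 (-0.23). The RLE factors also took this call away (-0.18, adjusted p = 0.161). PSMD13 was past the threshold in neither line with all libraries (0.29 and -0.01). Without Y79 THZ1 replicate 2 it was called higher in WERI (0.26, adjusted p = 0.000108) and lower in Y79 (-0.28, adjusted p = 0.000156). RLE factors also called its WERI rise (0.37, adjusted p = 0.0325). PSMD8 rose, from 93.4, 99.1 and 98.5 to 128, 127 and 136 CPM in WERI (log2 0.43, adjusted p = 0.00102). In Y79 it went from 96.5, 94.7 and 103 to 123, 154 and 116 (0.41, adjusted p = 0.0012). For PSMD8, library size scaling gave -0.02 and -0.16 and mitochondrial scaling -1.47 and -1.30. The 8 lid genes held 0.105% ± 0.00234 (SD, n = 3) of all counts in WERI DMSO and 0.0608% ± 0.000328 in WERI THZ1, and 0.0941% ± 0.00154 and 0.0408% ± 0.00218 in Y79. Every scaling used kept the falls of PSMD6, PSMD7, PSMD12 and PSMD14 negative.

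**Figure D2:**
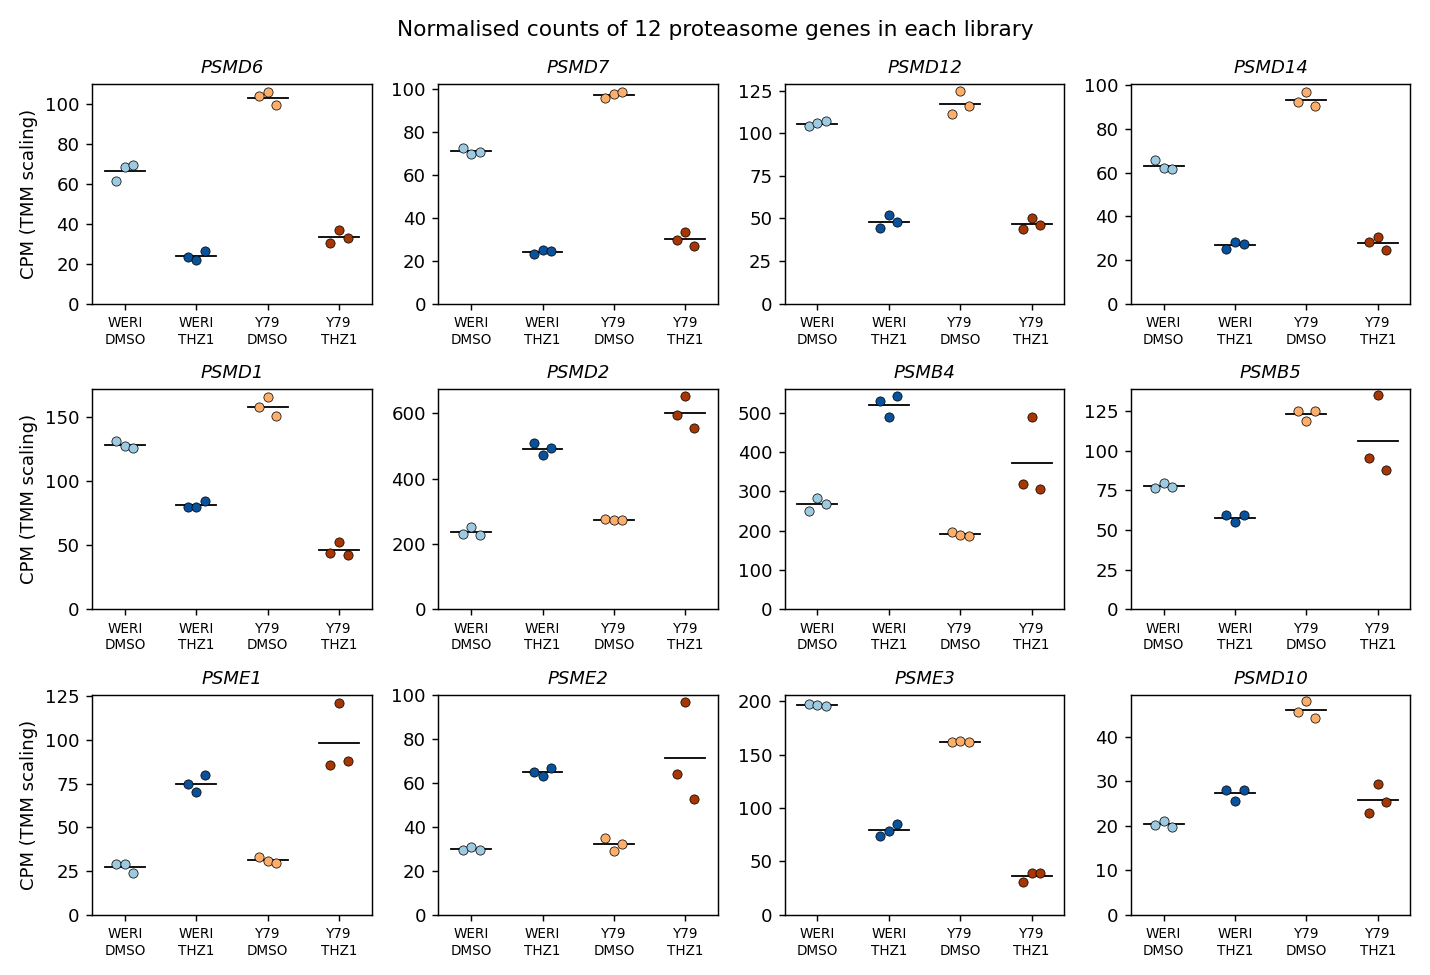
TMM-scaled CPM (y axis, linear from 0) of 12 proteasome genes in each of the 12 libraries, by group (x axis); points are libraries and lines are group means. PSMD6, PSMD7, PSMD12 and PSMD14 lie lower under THZ1 in both lines, PSMD2, PSMB4, PSME1 and PSME2 higher, and PSMD10 higher in WERI and lower in Y79; the highest Y79 THZ1 point of PSMB4, PSMB5, PSME1 and PSME2 is replicate 2.

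In the base, scaffold subunits went opposite ways. PSMD2 and PSMD1 are the large scaffold subunits of the base that receive ubiquitin and shuttle factors. PSMD2 stood at 230, 251 and 228 CPM in WERI DMSO and 508, 474 and 494 CPM in WERI THZ1, and at 278, 272 and 272 against 594, 653 and 556 in Y79. It rose 2.08-fold in WERI (log2 1.06, SE 0.0738, adjusted p = 2.92e-08) and 2.19-fold in Y79 (1.13, SE 0.0739, adjusted p = 1.02e-08), with no overlap. Library size scaling kept the rise (0.61 and 0.56), and only mitochondrial scaling turned it (-0.84 and -0.58). PSMD1 instead fell 1.58-fold in WERI, from 132, 128 and 126 to 79.7, 80.3 and 84.4 CPM, and 3.43-fold in Y79, from 158, 166 and 151 to 43.7, 52.5 and 42.5 CPM. PSMD4, a ubiquitin receptor, rose in WERI (0.45, adjusted p = 0.00921) and was past no threshold in Y79 (0.30, adjusted p = 0.0607). Library size scaling put it at 0.00 and -0.28. RLE factors called its Y79 rise (0.41, adjusted p = 0.0194), as did leaving out Y79 THZ1 replicate 1 (0.39) or 3 (0.41).

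Of the 6 base ATPases, which form the ring that unfolds substrates, 3 fell in each line (PSMC1, PSMC2 and PSMC6) and none rose at an adjusted p under 0.05. With RLE factors, and with DESeq2, 1 was called higher in each line. PSMC2 fell 1.93-fold in WERI, from 65.1, 67.7 and 62.5 to 30.7, 35 and 35.6 CPM, and 2.25-fold in Y79, from 99.7, 101 and 96.9 to 43.5, 52.7 and 36.4 CPM. PSMC6 fell 1.59-fold and 2.34-fold. PSMC1 fell 1.4-fold and 1.32-fold, but 75.8% of its exon bases lie under NRDE2 on the opposite strand and it has 13 named pseudogenes, so that its counts are uncertain where strand was not used in counting. Its Y79 call was lost without Y79 DMSO replicate 1 (-0.38) or THZ1 replicate 1 (-0.29) or 3 (-0.32), and with RLE factors (-0.29, adjusted p = 0.0824). PSMC3, PSMC4 and PSMC5 were past the threshold in neither line (log2 fold changes 0.01, 0.15 and 0.27 in WERI and 0.34, 0.08 and 0.10 in Y79), and library size scaling made all of these negative. RLE factors instead called PSMC5 higher in WERI (0.36, adjusted p = 0.0343) and PSMC3 higher in Y79 (0.45, adjusted p = 0.0183). PSMC3 was also called higher in Y79 without THZ1 replicate 1 (0.43) or 3 (0.46). PSMC5 was called higher in WERI without Y79 THZ1 replicate 2 (0.24) or 3 (0.24).

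In the 20S core, 3 genes rose and 6 fell in WERI (median -0.20), and 4 rose and 7 fell in Y79 (median -0.34). In the alpha ring none rose at an adjusted p under 0.05 and 3 fell in WERI (median -0.23), and 1 rose and 5 fell in Y79 (median -0.80). DESeq2 called 1 alpha gene higher in WERI. The Y79 fall of PSMA2 was lost without Y79 DMSO replicate 2 (-0.44) or THZ1 replicate 1 (-0.43) or 3 (-0.31), and with RLE factors (-0.37, adjusted p = 0.0645). PSMA5 had the largest fall of the ring, 2.25-fold in WERI, from 49.6, 53.2 and 50.5 to 21.9, 23.4 and 22.8 CPM, and 2.02-fold in Y79, from 62.8, 64.5 and 59.2 to 26.5, 41 and 24.9 CPM. PSMA7 was the 1 alpha gene with a positive log2 fold change, past the threshold in Y79 (0.49, adjusted p = 0.0134) and not in WERI (0.30, adjusted p = 0.112), and library size scaling gave -0.10 and -0.15.

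In the beta ring 3 genes rose and 3 fell in WERI (median 0.15), and 3 rose and 2 fell in Y79 (median 0.02). PSMB3, a structural subunit, rose in both (0.54, adjusted p = 0.0203, and 0.70, adjusted p = 0.004), but library size scaling gave 0.09 and 0.11 and mitochondrial scaling -1.37 and -1.01; its WERI call was lost without WERI DMSO replicate 1 or 3 or WERI THZ1 replicate 2 or 3 (0.48, 0.53, 0.53 and 0.49). PSMB4, a structural subunit of the core without an active site, stood at 251, 282 and 267 CPM in WERI DMSO and 530, 489 and 542 CPM in WERI THZ1, and at 196, 189 and 186 against 319, 489 and 306 CPM in Y79. It rose 1.95-fold in each line (log2 0.96, adjusted p = 3.46e-05 and 3.11e-05), also by library size (0.52 and 0.38), and fell only by mitochondrial scaling (-0.94 and -0.75). PSMB1 fell 2.28-fold in WERI, from 78.5, 83 and 75.1 to 31.1, 34.6 and 38.1 CPM, while in Y79 its libraries overlapped (141, 145 and 139 against 86, 142 and 81.1 CPM, 1.38-fold lower, adjusted p = 0.0245), and the call was lost with RLE factors (-0.35) and without Y79 DMSO replicate 2 (-0.45), THZ1 replicate 1 (-0.36) or THZ1 replicate 3 (-0.32).

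The 3 catalytic subunits did not move together. PSMB5, the chymotrypsin-like subunit that bortezomib binds, fell 1.34-fold in WERI, from 76.5, 79.6 and 77.4 to 59.3, 55 and 59.5 CPM (adjusted p = 0.00709). In Y79 it stood at 125, 119 and 125 CPM in DMSO and 95.4, 135 and 88.2 in THZ1 and was past no threshold (log2 -0.22, adjusted p = 0.13); without replicate 2 of Y79 in THZ1 the value was -0.45 (adjusted p = 1.89e-06). PSMB6, the caspase-like subunit, fell 1.4-fold in WERI (adjusted p = 0.0195) and 1.6-fold in Y79 (adjusted p = 0.00228); its WERI call was lost without replicate 2 of WERI DMSO (-0.45) or of WERI THZ1 (-0.41), and with RLE factors (-0.40, adjusted p = 0.0561). PSMB7, the trypsin-like subunit, rose in Y79 (1.46-fold, adjusted p = 0.000835) and was past no threshold in WERI (1.11-fold, adjusted p = 0.275), and library size scaling gave -0.04 and -0.30. Tests of the difference between lines found none for PSMB5, PSMB6 or PSMB7 (adjusted p = 0.441, 0.627 and 0.111).

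The inducible and tissue-specific core subunits were scarce. PSMB8, an immunoproteasome subunit, held 35, 23 and 47 counts in WERI DMSO, 37, 28 and 21 in WERI THZ1 and 0 in all 6 Y79 libraries. With a floor of 3 counts per library, it was at least 11-fold higher in WERI than in Y79 in DMSO and at least 7.85-fold higher in THZ1. PSMB9, another immunoproteasome subunit, held 4, 7 and 14 counts in WERI DMSO, 1, 3 and 6 in WERI THZ1 and 0 in Y79. It was at least 2.6-fold higher in WERI in DMSO. The PSMB9 gene shares 139 exon bases with PSMB8 on the opposite strand. PSMB10, the third inducible subunit, stood at 2.25 to 2.97 CPM in WERI DMSO and at 5.06 to 5.77 in Y79 DMSO, and rose in Y79 (log2 0.49, adjusted p = 0.0177), with 34.8% of its exon bases shared with the locus AC040162.1. Library size scaling gave -0.08, and the call was lost without Y79 DMSO replicate 1 (0.47) or 3 (0.45) or THZ1 replicate 2 (0.38). PSMA8, a testis core subunit, had 0 counts in all 12 libraries, and PSMB11, the thymus subunit, held 31, 21 and 0 counts in Y79 THZ1 and at most 7 elsewhere.

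The activators moved both ways. PSME1 and PSME2 encode the 11S (PA28) caps that interferon is known to induce, and PSME3 encodes PA28 gamma, a nuclear homologue. PSME1 stood at 29.3, 28.8 and 24.1 CPM in WERI DMSO and 74.7, 70.3 and 79.8 in WERI THZ1, and at 33.3, 30.7 and 29.5 against 85.7, 121 and 88 in Y79. It rose 2.73-fold in WERI (log2 1.45, SE 0.124, adjusted p = 2.08e-07) and 3.14-fold in Y79 (1.65, SE 0.125, adjusted p = 4.43e-08), the highest called rise among the members in both lines. PSME2 rose 2.16-fold and 2.22-fold. Both stayed up by library size (PSME1 1.00 and 1.07, PSME2 0.66 and 0.56), and mitochondrial scaling turned PSME1 to -0.45 and -0.06 and PSME2 to -0.79 and -0.56. PSME3 fell from 198, 197 and 196 to 74.2, 78.3 and 85.2 CPM in WERI (2.49-fold, adjusted p = 1.67e-08) and from 162, 163 and 162 to 30.9, 38.8 and 39.6 CPM in Y79 (4.46-fold, adjusted p = 2.03e-10), the largest fall of a member in Y79. PSMF1, a proteasome inhibitor, fell 1.56-fold and 1.67-fold, and PSME4 (PA200) was past the threshold in neither line (log2 -0.01 and 0.04).

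Among the chaperones that build the core and the base, 2 rose and 3 fell in WERI and 1 rose and 4 fell in Y79. PSMG1, PSMG2 and PSMG4, partners in the assembly of the alpha ring, fell in both: PSMG1 by 0.79 and 1.18, PSMG2 by 0.88 and 0.83 and PSMG4 by 0.84 and 0.44 on the log2 scale. PSMD9 rose (0.41 and 0.45, but -0.04 and -0.13 by library size and -1.50 and -1.26 by mitochondrial scaling). PSMD10 (gankyrin), a base chaperone, was called in opposite directions. PSMD5, another base chaperone, had only 0 to 23 counts per library and no call with all libraries (2.32, adjusted p = 0.0105, in Y79 without THZ1 replicate 1). How paired reads were tallied was not stated, which makes such low counts uncertain. PSMC3IP rose 2.28-fold in WERI, from 90.6, 97.5 and 97.3 to 208, 213 and 230 CPM, and 1.86-fold in Y79 (0.74 and 0.32 by library size, -0.71 and -0.81 by mitochondrial scaling); 29.9% of its exon bases overlap MLX on the opposite strand, which fell in both lines (log2 -1.63 and -1.54).

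The summed shares of the core and of the regulatory particle were not tested and are given as values. The 14 constitutive 20S genes held 0.16% ± 0.0049 (SD, n = 3) of counts in WERI DMSO and 0.131% ± 0.00319 in WERI THZ1, and 0.178% ± 0.00258 and 0.123% ± 0.0196 in Y79. The 17 19S genes held 0.243% ± 0.00684 and 0.186% ± 0.00189 in WERI and 0.239% ± 0.00187 and 0.152% ± 0.0127 in Y79. The base as a whole held 0.138% and 0.126% in WERI and 0.144% and 0.111% in Y79. The beta ring held 0.093% and 0.0905% in WERI and 0.0956% and 0.0792% in Y79. The alpha ring held 0.0668% and 0.0407% in WERI and 0.0828% and 0.0441% in Y79. Without the mitochondrial mRNAs the beta ring held 0.0968% and 0.101% in WERI and 0.0998% and 0.0872% in Y79. No library of a THZ1 group reached the lowest DMSO library of its line in the 20S or 19S sums. These shares are on the library size scale. There the median of all tested genes was itself lower under THZ1, at a log2 fold change of -0.56 in WERI and -0.65 in Y79. A lower sum by itself is therefore not particular to these genes. A share of counts also moves with whatever else fills the library: without the mitochondrial mRNAs the 20S share was 0.166% and 0.147% in WERI and 0.186% and 0.136% in Y79. Shares of counts weigh long and abundant transcripts most.

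**Figure D3:**
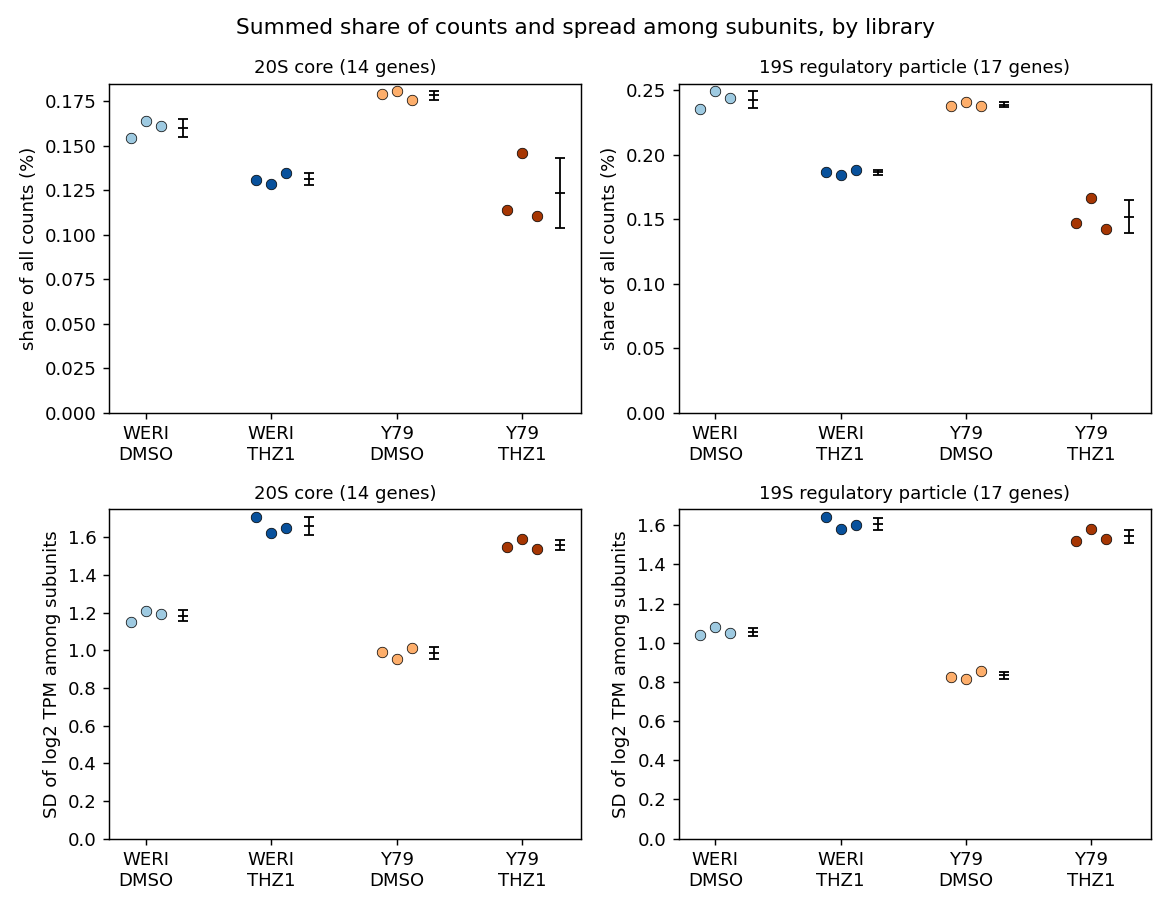
Upper row, share of all counts (%) held by the 14 20S core genes and the 17 19S regulatory particle genes in each library; lower row, SD of log2 TPM among the same genes in each library. Points are libraries, with mean and SD beside them. Sums are lower under THZ1 in both lines, on a scale where the median of all tested genes was also lower. The spread among subunits is larger under THZ1 in both lines and was not computed for other genes.

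Levels were spread more widely among the subunits of one particle under THZ1 than in DMSO, a description with no test. The spread of levels among other genes was not computed, so a wider spread is not shown to be particular to the proteasome. Over all tested genes the SD of the log2 fold changes was 1.13 in WERI and 1.39 in Y79. Over the 31 subunits it was 0.696 and 0.814. TPM was computed from the counts and the merged exon length of GENCODE v29, so levels can be set side by side within a library. In DMSO the SD of log2 TPM among the 17 19S genes was 1.04 to 1.08 in WERI and 0.817 to 0.855 in Y79, and under THZ1 it was 1.58 to 1.64 and 1.52 to 1.58. Among the 14 20S genes it went from 1.15 to 1.21 up to 1.62 to 1.71 in WERI and from 0.952 to 1.01 up to 1.54 to 1.59 in Y79. The highest 20S gene, PSMB4 in 11 of 12 libraries, stood 13.4 to 14.1 times above the lowest in WERI DMSO and 55.5 to 64 times above it in WERI THZ1, where the lowest was PSMA5. With the length of the principal transcript the SD was also larger under THZ1 (19S 0.942 to 0.989 and 1.44 to 1.53 in WERI). On the level scale by merged exon length, PSMB4 (663 TPM), PSMD4 (484), PSMB7 (420) and PSMA7 (387) led in WERI DMSO, and PSMC6 (37.5), PSMD6 (39.2) and PSMD14 (44) were the lowest subunits of the complex. By principal transcript length the lowest were PSMA5 (47.5 TPM), PSMC1 (58.8) and PSMC2 (73.8), with PSMD6 at 161 and PSMD14 at 112.

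Members called lower in both lines were longer genes than members called higher in both. Their median genomic span was 25142 bp (19 genes, 2360 to 115964 bp) against 7403 bp (8 genes, 2411 to 29567 bp), and 32213 bp over all tested protein-coding genes. Across the 46 tested members the log2 fold change correlated with log2 span at Pearson's r -0.47 in WERI and -0.40 in Y79, against -0.16 and -0.12 over all protein-coding genes. The points share libraries and are not independent.

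The 2 responses differed for 7 of 46 tested members (background 22%), 1 with a change that was more positive in Y79 (background 8.74% of all genes) and 6 with a change that was more negative (13.2%). PSMD10 stood at 20.2, 21 and 19.8 CPM in WERI DMSO and rose to 28.1, 25.7 and 28.1 in THZ1 (adjusted p = 0.00135), while in Y79 it fell from 45.5, 48.1 and 44.3 to 22.8, 29.4 and 25.4 (adjusted p = 2.69e-06), and the difference was -1.26 (SE 0.133, adjusted p = 5.38e-05). Its WERI rise became -0.02 by library size. PSMD1 fell further in Y79 (difference -1.12, SE 0.111, adjusted p = 3.7e-05), as did PSME3 (-0.84, SE 0.121, adjusted p = 0.000424), PSMA3 (-0.64, SE 0.131, adjusted p = 0.00424) and PSMD14 (-0.51, SE 0.118, adjusted p = 0.00881). PSMB2, a beta ring subunit, rose in WERI (0.39, adjusted p = 7.25e-05, but -0.06 by library size) and stood at 0.02 in Y79 (difference -0.36, adjusted p = 0.0096). Mitochondrial scaling took the difference calls of PSMA3 (-0.46, adjusted p = 0.068), PSMD14 (-0.33, adjusted p = 0.198) and PSMB2 (-0.18, adjusted p = 0.398) away. PSMB1 was the exception upward (0.73, adjusted p = 0.0451), a call lost when any of 9 libraries was left out. Without replicate 2 of Y79 in THZ1, 20 members were more negative, beside a background that went from 13.2% to 20%. Leaving it out also gave WERI calls to 8 members: PSMA1, PSMA2, PSMA3, PSMA7, PSMB7, PSMC5, PSMD3 and PSMD13. Over all genes the WERI calls then went from 27.7% to 28.8% higher and from 37.2% to 40.5% lower. All 8 lid genes had a negative difference, between -0.51 and -0.01, and 1 of them passed the test; RLE factors and DESeq2 each gave 1 positive value, and mitochondrial scaling gave 4 positive and 4 negative with none called.

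The lines also differed before treatment. In DMSO, 30 of 46 tested members were higher in Y79 than in WERI (background 32.3%) and 6 were lower (32.6%), with a median log2 ratio of 0.42 against 0 over all genes. In either direction 64.9% of all genes were called, and 44 members had libraries that did not overlap, a state of 38.9% of all genes in the higher and 39% in the lower direction. All 6 base ATPases were higher, at log2 ratios of 0.42 to 0.61, and so were 10 of 14 20S and 12 of 17 19S genes. PSMD10 (1.18), PSMG2 (1.15), PSMB10 (0.97) and PSMA6 (0.92) had the highest ratios. Of the members called lower, PSMC3IP (-2.01), PSMD3 (-0.94) and PSMB4 (-0.49) had the lowest ratios after PSMB8, which has no Y79 counts. PSMD5 stood at -1.80 and was not called. PSMD3, a lid subunit, stood at 262, 285 and 278 CPM in WERI and 137, 143 and 150 in Y79. MYCN, the oncogene that the series title names, stood at 323 to 345 CPM in WERI DMSO and 1210 to 1260 in Y79 DMSO. Mitochondrial scaling called 13 higher, beside 18.2% of all genes. Among these 13 were 5 of the 20S genes and 4 of the 19S genes, with 2 of the 6 base ATPases.

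**Figure D4:**
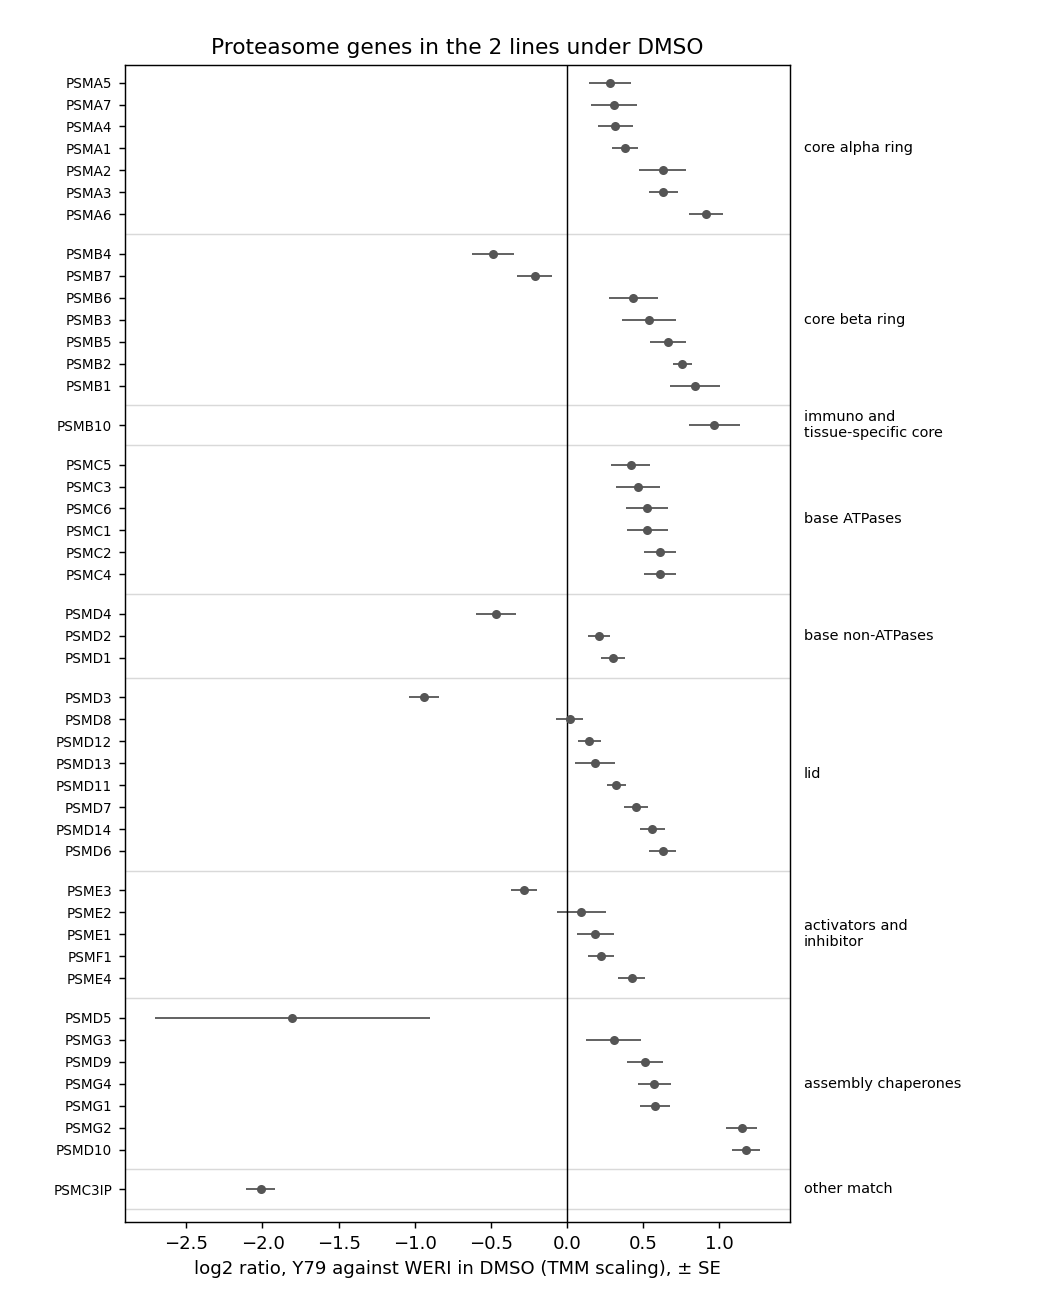
Log2 ratio of Y79 against WERI in DMSO (x axis, TMM scaling, bars are SE) for each tested proteasome gene except PSMB8, grouped by role. All 6 base ATPases lie between 0.42 and 0.61, and PSMC3IP, PSMD5, PSMD3, PSMB4, PSMD4, PSME3 and PSMB7 lie below 0.

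Other genes of the pathway were read from a list of 33 genes, all of them tested. In WERI 12 rose (27.7% of all genes), 14 fell (37.2%) and 7 passed neither threshold, and in Y79 9 rose (29.9%), 18 fell (38.5%) and 6 passed neither. SEM1, a small lid subunit outside the symbol rule, rose in both lines, from 24, 29.4 and 26.8 to 60.5, 56.4 and 64.4 CPM in WERI and from 44, 48.2 and 45.6 to 90.7, 150 and 75.4 in Y79 (log2 1.18 and 1.2), also by library size (0.73 and 0.61), but fell by mitochondrial scaling (-0.73, adjusted p = 0.00281, and -0.51, adjusted p = 0.0234). The regulators of subunit transcription fell: NFE2L1 by 0.63 and 1.44, DDI2, the protease that releases NFE2L1, by 1.75 and 2.10, NGLY1, which removes its sugar chains, by 0.80 and 0.97, and NFE2L2 by 1.32 and 1.29 on the log2 scale. RPS27A, a ubiquitin gene fused to a ribosomal protein, rose (1.60 and 1.96), also by library size (1.15 and 1.37), and was past no threshold by mitochondrial scaling (-0.30 and 0.25). UBB, a polyubiquitin gene, rose in WERI (1.28, but -0.62 by mitochondrial scaling) and fell in Y79 (-0.67, difference -1.95, adjusted p = 2.04e-05). UBA1, the main ubiquitin-activating enzyme, rose (0.95 and 0.93, and 0.50 and 0.36 by library size, but -0.95 and -0.78 by mitochondrial scaling, a called fall). For this list, 9 genes had a more negative change in Y79 (13.2% of all genes) and none a more positive one (8.74%) by edgeR at an adjusted p under 0.05.

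**Figure D5:**
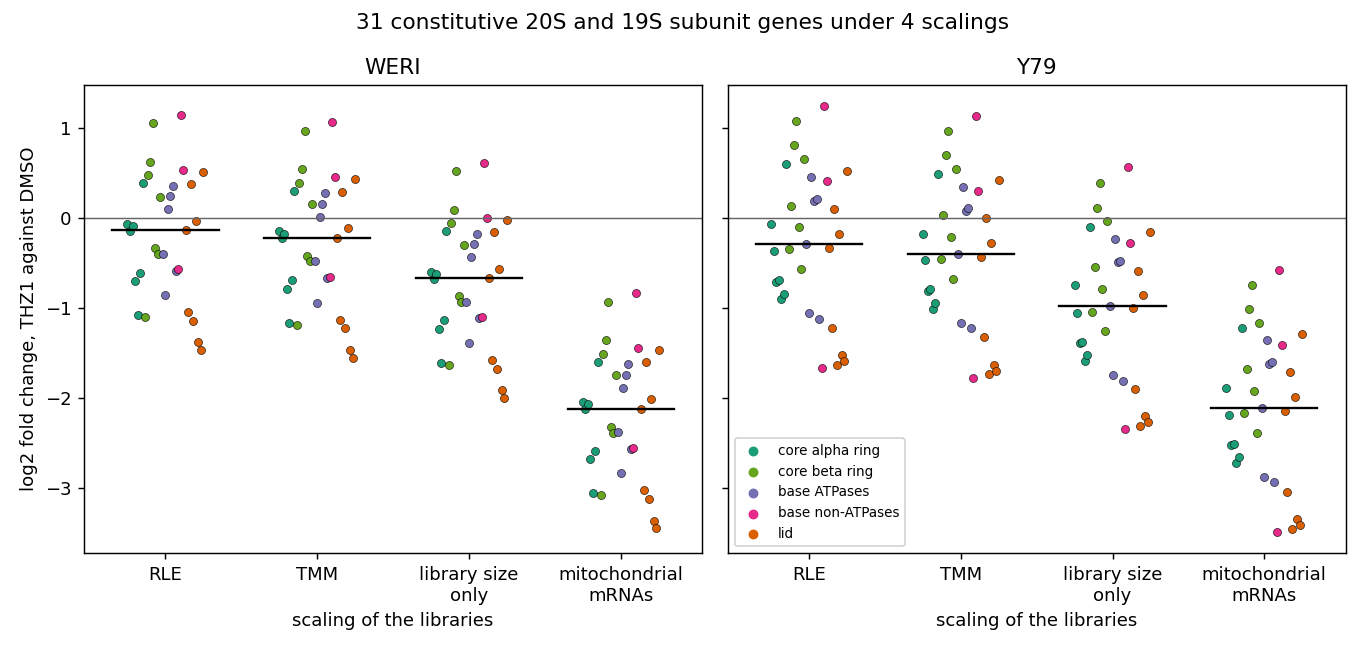
Log2 fold change of THZ1 against DMSO (y axis) of the 31 constitutive 20S and 19S genes under 4 scalings of the libraries (x axis), WERI left and Y79 right, colours give the role and lines the median. Lid genes hold the lowest values in WERI under each scaling, and the TMM medians are -0.23 in WERI and -0.40 in Y79.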

How the data were processed

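The authors deposited whole-number counts per gene for all 12 libraries. Per the labels' protocols the libraries were made with the NEBNext Ultra RNA kit, and the submitters' processing notes name Cufflinks and GRCh38. Which aligner and which counting settings were used was not stated. From the deposited counts, edgeR 4.0.16 in R 4.3.3 (filterByExpr, TMM factors, robust quasi-likelihood fit with 1 mean per group over all libraries) gave 4 contrasts on 18844 features, of which 14865 are Ensembl genes. Calls use adjusted p under 0.05. The fit was tested on counts simulated for THZ1 against DMSO in WERI: of the changed genes left by the filter it called 97.8% at log2 -2, 85.1% at -1, 93.6% at 1 and 97.9% at 2, and 0.0406% of unchanged genes. The simulation used WERI DMSO mean levels in every group and the same spread for every gene. It changed 50 genes at each size among 18844 features. In the data 64.8% of genes were called in WERI, so these rates cannot be carried over to the data. A first criterion over all 50 genes drawn at -2 was missed with 44, since 5 were filtered out, and was then set on tested genes. CPM uses TMM library sizes, and TPM the merged exon length. Named genes are PSMB5 to PSMB10, PSMD14, PSMC3IP, each class's highest and lowest log2 fold changes, and for the line difference and the lines in DMSO the 4 highest and lowest called; other members named are examples chosen after their values were seen. The members and lists were chosen with earlier results of these data known. Alternatives were library size, RLE, and mitochondrial scaling, no filter, DESeq2 1.42.0, compared groups only, a replicate block and each library left out. Principal transcript length and the shorter promoter stretch, with the lid as its own set, were added after seeing the data.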

Additional observations from a re-analysis of the deposited data

Results flagged for a closer look

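The THZ1 response differed between the lines, by edgeR's test of the difference of the log2 fold changes (Y79 minus WERI), for 7 of the 46 tested proteasome genes (background 22%). The difference was -1.26 for PSMD10, -1.12 for PSMD1, -0.84 for PSME3, -0.64 for PSMA3, -0.51 for PSMD14, -0.36 for PSMB2 and 0.73 for PSMB1. With all libraries, PSMD10 is the 1 member called in opposite directions, with a log2 fold change of 0.42 in WERI and -0.83 in Y79. Without replicate 2 of Y79 in THZ1, PSMD13 was called in opposite directions too (0.26 and -0.28). PSMB1 is the 1 called member with a more positive value in Y79, and its Y79 libraries in THZ1 stood at 86, 142 and 81.1 CPM, where the middle value belongs to replicate 2; without that library the difference was 0.43.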

How the results depend on the processing

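Member counts moved with scaling and, for the difference between the lines, with 1 library. With library size alone, 5 members rose in WERI (14.9% of all genes) and 5 in Y79 (14.6%). In the other direction 29 and 32 fell (53.6% and 56.1%), and 11 had a more negative change in Y79 (18.1%). With mitochondrial scaling 0 rose (0.747% of all genes) and 46 fell (89.7%) in WERI, and 0 rose (1.9%) and 43 fell (82%) in Y79. By the same scaling 3 differences were higher (12%) and 3 lower (4.8%), and 13 members were higher in Y79 DMSO (18.2%). At an adjusted p under 0.05 the difference was higher for 0 members without the filter (6.45% of all genes) and for 2 with DESeq2 (12.1%). Leaving out 1 library at a time gave 10 to 15 rises (24.2% to 28.8% of all genes) and 19 to 24 falls (34.1% to 40.5%) in WERI. In Y79 it gave 10 to 14 (26.8% to 29%) and 19 to 27 (36.1% to 39.7%). Differences were higher for 0 to 2 (5.91% to 14.3%) and lower for 6 to 20 (9.55% to 20%). The value of 20 came only without replicate 2 of Y79 in THZ1. In Y79 DMSO 25 to 34 members were higher (28.3% to 34.6%) and 6 to 7 lower (29.6% to 36.4%).

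These log2 fold changes changed sign. By library size in WERI: PSMA7 -0.15, PSMB2 -0.06, PSMB7 -0.30, PSMB10 -0.08, PSMB8 -0.15, PSMC3 -0.44, PSMC4 -0.30, PSMC5 -0.18, PSMD4 -0.00, PSMD13 -0.16, PSMD8 -0.02, PSMD10 -0.02, PSMD9 -0.04. By library size in Y79: PSMA7 -0.10, PSMB2 -0.54, PSMB7 -0.04, PSMB10 -0.08, PSMC3 -0.24, PSMC4 -0.50, PSMC5 -0.48, PSMD4 -0.28, PSMD8 -0.16, PSME4 -0.52, PSMD9 -0.13, PSMG3 -0.50. By mitochondrial scaling in WERI: PSMA7 -1.61, PSMB2 -1.51, PSMB3 -1.37, PSMB4 -0.94, PSMB7 -1.75, PSMB10 -1.53, PSMB8 -1.60, PSMC3 -1.89, PSMC4 -1.75, PSMC5 -1.63, PSMD2 -0.84, PSMD4 -1.45, PSMD13 -1.61, PSMD8 -1.47, PSME1 -0.45, PSME2 -0.79, PSMD10 -1.48, PSMD9 -1.50, PSMC3IP -0.71. By mitochondrial scaling in Y79: PSMA7 -1.22, PSMB2 -1.69, PSMB3 -1.01, PSMB4 -0.75, PSMB7 -1.17, PSMB10 -1.22, PSMC3 -1.36, PSMC4 -1.63, PSMC5 -1.61, PSMD2 -0.58, PSMD4 -1.41, PSMD8 -1.30, PSME1 -0.06, PSME2 -0.56, PSME4 -1.68, PSMD9 -1.26, PSMG3 -1.62, PSMC3IP -0.81. RLE factors and DESeq2 each gave PSME4 0.08 in WERI and PSMD13 0.10 in Y79, and no filter gave PSMC3 -0.01 in WERI and PSMB2 -0.00 in Y79. These scalings shift all genes by construction; for the single libraries the cause was not tested. Ranges over left-out libraries that include a turned sign were PSMC3 in WERI -0.05 to 0.05, PSME4 in WERI -0.07 to 0.01, PSMD5 in WERI -0.85 to 0.04, PSMB2 in Y79 -0.04 to 0.04, PSMC4 in Y79 -0.10 to 0.14, PSMC5 in Y79 -0.14 to 0.24, PSMD13 in Y79 -0.28 to 0.10, PSME4 in Y79 -0.07 to 0.12, PSMG3 in Y79 -0.27 to 0.22.

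Same-numbered samples showed no shared deviation: their deviations correlated between -0.045 and 0.051 (median -0.006, 18 pairs), those of other numbers between -0.06 and 0.078. This does not settle whether same-numbered cultures were set up together, which the sample titles do not say. With the replicate number as a block, 11 members rose (26.8% of all genes) and 20 fell (36.4%) in WERI, and 11 (28.6%) and 23 (37.9%) in Y79. The differences stood at 1 (7.14%) and 6 (11.5%), and 29 were higher (31.6%) and 6 lower (31.6%) in Y79 DMSO. Counts under about 50 per library, as for PSMB8, PSMB9, PSMB11 and PSMD5, limit what can be said of those genes, and intervals and floors cover counting error only.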

Other observations

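The deubiquitinases and shuttle factors that work with the 19S particle were not described above. Of the deubiquitinases, USP14 fell in both lines (log2 -0.51 and -0.45), and UCHL5 rose in WERI (0.43, but -0.02 by library size and -1.46 by mitochondrial scaling) and was past no threshold in Y79 (0.14). RLE factors called a rise of UCHL5 in Y79 (0.25, adjusted p = 0.00316). The shuttle factors RAD23B and UBQLN2, which carry ubiquitinated proteins to the proteasome, rose in WERI (0.33 and 0.51) and fell in Y79 (-0.17 and -0.29), while UBQLN1 rose in both lines (0.26 and 0.19, but -0.19 and -0.37 by library size) and UBQLN4 was past no threshold in either (0.09 and 0.00). For RAD23B and UBQLN2 the WERI values were -0.12 and 0.06 by library size and -1.56 and -1.39 by mitochondrial scaling, and with RLE factors neither Y79 change was called (adjusted p = 0.411 and 0.0711). The differences between the lines passed edgeR's test for RAD23B and UBQLN2 (-0.51 and -0.80; by mitochondrial scaling -0.32, adjusted p = 0.13, and -0.61, adjusted p = 0.0109). ZFAND5, a proteasome-activating zinc finger protein, fell in both lines (log2 -0.82 and -1.57), as did AKIRIN2, which takes part in the nuclear import of proteasomes (-0.79 and -0.73).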
